A study of Rattus norvegicus with 12 samples.

Results

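The 73 genes described here encode the machinery that docks, primes and fuses synaptic vesicles with the presynaptic membrane. They were taken by symbol from 23760 genes measured in rat (Rattus norvegicus) hippocampus: synaptotagmins, syntaxins, syntaxin-binding proteins, VAMPs, SNAP-25 relatives, complexins, synapsins, RIMs, Munc13s, RAB3s, SV2s, Syp, Bsn and Pclo. The samples were 6 labelled AS3h and 6 labelled NC. The labels expand neither name and give no strain, age, sex, treatment or hour of sampling. The series concerns impaired cognition after long work under water, and AS3h against NC is its 1 comparison here. Libraries held 29615243 to 36947557 reads in AS3h and 30128112 to 38106489 in NC, and values are given as normalised reads, which are reads divided by a library factor. The labels do not tie samples to animals, and any p-value here therefore reflects variation among these libraries, which could be technical.

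Release begins when vesicle and plasma membrane SNARE proteins zip together. VAMP2 sits on the vesicle, syntaxin and SNAP-25 on the plasma membrane, and Munc13 (Unc13a) guides their assembly. Synaptotagmin-1 then senses calcium and, with complexin, sets the moment of fusion, while RIMs, Bassoon and Piccolo hold vesicles and calcium channels together at the active zone. In hippocampus this machinery serves glutamate release from pyramidal and granule cells and GABA release from interneurons. Relatives of the same families run general membrane traffic in all cells, so the gene families hold both neuronal and housekeeping members.

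Of the 73 genes, 2 fell, 0 rose and 71 did not pass (limma, p adjusted by Benjamini-Hochberg across the 19050 genes tested and called under 0.05). The 2 were Syt10, a calcium-binding synaptotagmin, and Stxbp4, a partner of syntaxin-4. Among all genes tested 9.26% passed, 5.04% as higher and 4.22% as lower, so the called share of the release genes, 2.74%, was below the background. Before adjustment 20 of the 73 had a p under 0.05, 9 higher and 11 lower, against 24.9% of all genes. The median log2 fold change, AS3h over NC, was -0.00044 over the 73 genes and -0.0043 over all genes. The median size of change was 0.15 on the log2 scale in the 73 and 0.16 in all genes. The 95% interval of the log2 fold change lay wholly between -0.5 and 0.5 for 56 of the 73. With AS3h 2 left out Syt11, Syt12 and Vamp2 rose as well, and with NC 1 left out Syt11 rose and Stx3 fell, while 9.51% and 8.44% of all genes passed. In bulk tissue, fewer cells of a type and less RNA per cell cannot be told apart.

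**Figure D1:**
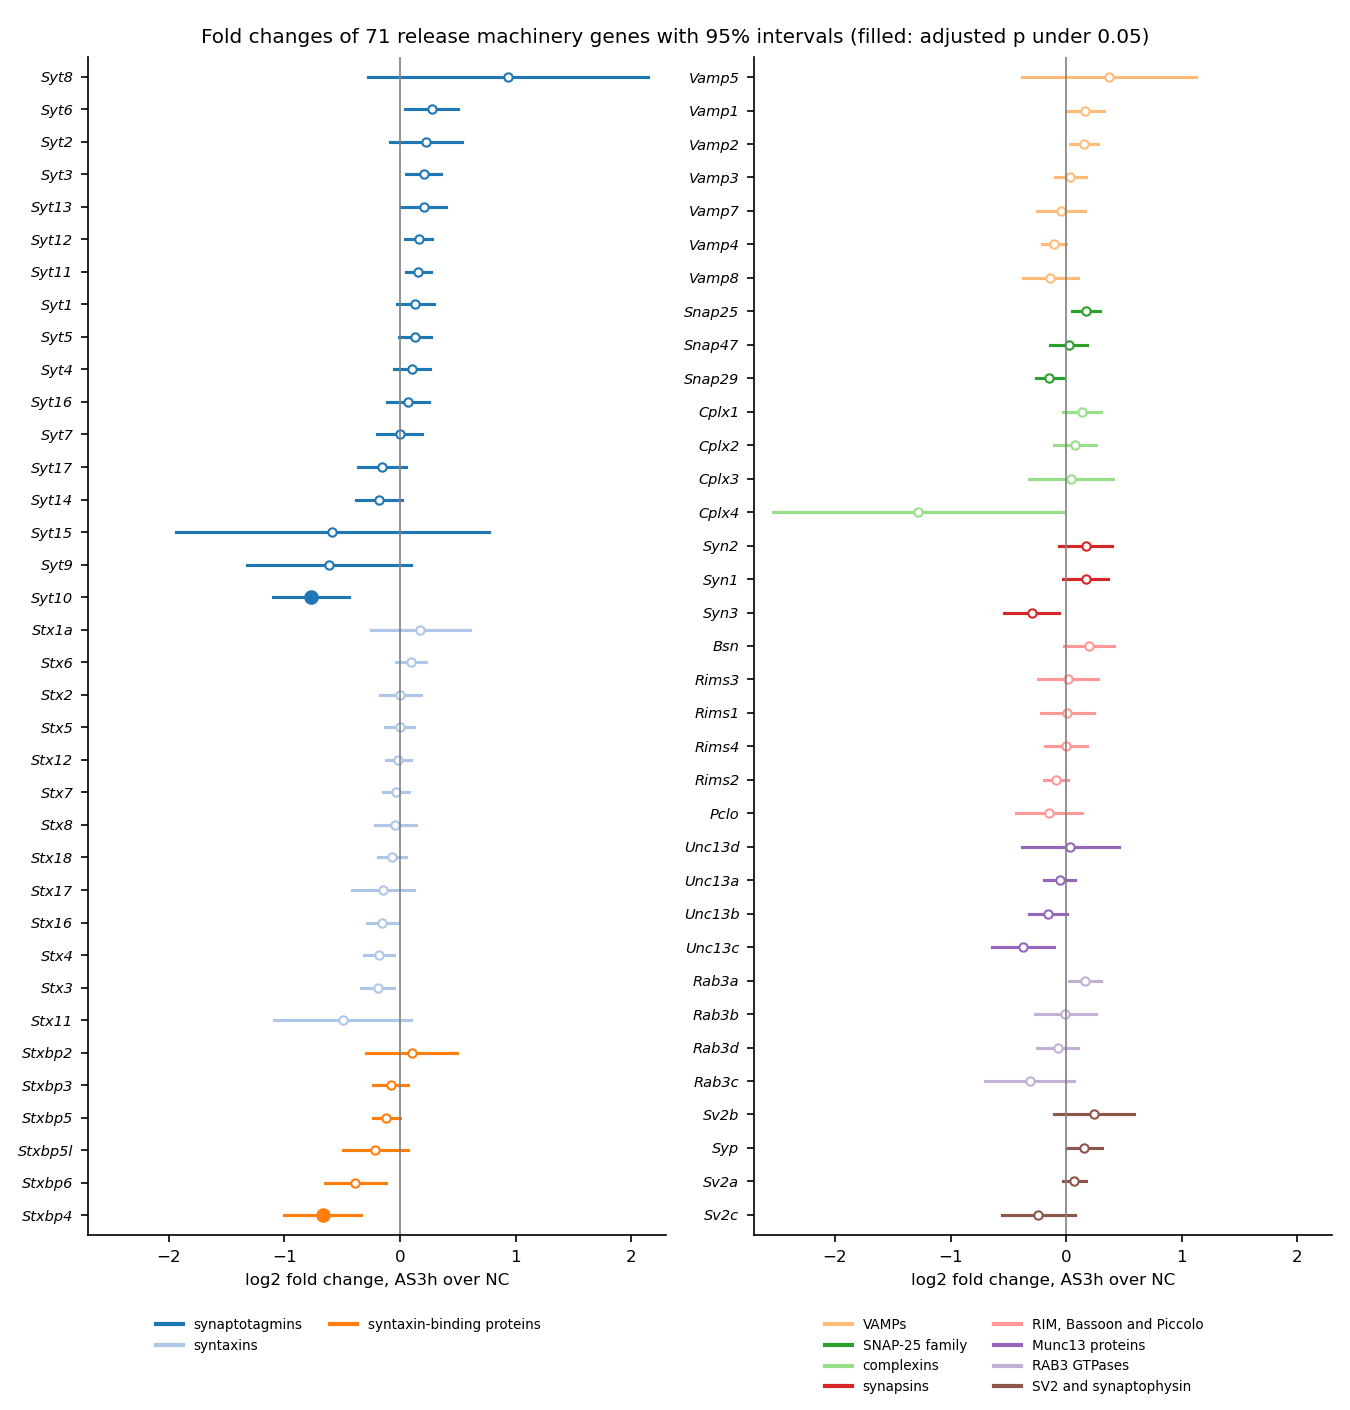
Log2 fold change, AS3h over NC, of 71 of the 73 genes (points) with its 95% interval from limma (lines), grouped and coloured by role; filled points passed an adjusted p of 0.05. Only Syt10 and Stxbp4 are filled, and the widest intervals belong to Cplx4, Syt15 and Syt8, which had few reads.

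Syt10 was the release gene with the smallest p. It was first known as a synaptotagmin whose mRNA seizures induce in rat brain, and in mouse olfactory bulb neurons it is the calcium sensor for secretion of insulin-like growth factor 1. Syt10 stood at 47.1, 56.1 and 76.4 normalised reads (lowest, median and highest of 6) in AS3h, against 86.5, 101 and 122 in NC. All 6 AS3h libraries lay below every NC library. Groups that did not overlap, with AS3h lower, were found for this 1 release gene and for 2.04% of all genes tested. With AS3h higher there were 0 release genes and 3.01% of all genes. The log2 fold change of Syt10 was -0.77 ± 0.15 (SE; 95% interval -1.10 to -0.44), or 0.586 of the NC level, with an adjusted p of 0.00643. The 6 libraries held 369 reads of the gene in AS3h and 667 in NC.

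Stxbp4, also called Synip, binds syntaxin-4 and is known from mouse adipocytes, where it acts in insulin-controlled traffic of the glucose transporter GLUT4. It stood at 78.4, 86.8 and 111 normalised reads (lowest, median and highest) in AS3h, against 107, 141 and 211 in NC. Of the 6 AS3h libraries, 5 lay below every NC library, and AS3h 5 lay above NC 3 only. The log2 fold change was -0.67 ± 0.16 (95% interval -1.001 to -0.338, adjusted p = 0.0153), on 562 reads in AS3h and 968 in NC. In the RefSeq gene table of another build, GRCr8, the span of Stxbp4 overlaps that of LOC134480712. Of the 73 release genes, 31 overlap another gene there, Snap25, Syt12, Unc13c and Stx3 among them. Whether any of these genes share reads was not tested. No other gene's span overlaps Syt10 there.

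Syt10 and Stxbp4 passed with each of the 12 libraries left out in turn (adjusted p = 0.00513 to 0.0187 and 0.0098 to 0.0367), and without both AS3h 4 and AS3h 5 (0.0407 and 0.021), where 4.64% of all genes passed. Neither passed once averages of the choroid plexus and blood lists entered the fit as covariates: Syt10 was at -0.70 (adjusted p = 0.174) and Stxbp4 at -0.79 (adjusted p = 0.122). In that fit 131 of 19050 genes passed, 0.688%, and 0 release genes, of which 17 had an unadjusted p under 0.05, as 16.1% of all genes did. The choroid plexus list summed to 541 to 70695 normalised reads in AS3h and 299 to 1367 in NC, with the highest value in AS3h 5. Of its 12 genes 1 passed, Kcne2, as higher. Otx2 was at 0 in 3 AS3h and 4 NC libraries, and Prlr and Sostdc1 were each at 0 in 2 AS3h and 3 NC libraries. The blood list summed to 12491 to 39412 in AS3h and 9634 to 23415 in NC, with none of its 9 genes passing. In that list Ahsp was at 0 in 2 AS3h and 2 NC libraries, and S100a8 in 1 AS3h and 1 NC library. The group difference of the summed level had an adjusted exact permutation p of 0.146 for choroid plexus and 0.169 for blood. The part of these cells in the results was not tested.

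The Stxbp4 stretch shown first is the RefSeq sequence upstream of the annotated gene, chosen because Stxbp4 is the called member with a window in the table. It lies at chr10:75955818-75955987 of GRCr8, minus strand, and its 170 bases hold none of the motifs searched, so no letters are in capitals.
Stxbp4: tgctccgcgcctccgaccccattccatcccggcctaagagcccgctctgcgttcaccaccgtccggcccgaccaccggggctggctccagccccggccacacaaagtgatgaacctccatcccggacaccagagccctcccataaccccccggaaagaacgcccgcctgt
The motifs, read on both strands of the 250 bases upstream of each start, were the full cAMP response element TGACGTCA, its shorter form TGACG, which the full element contains, and the GC box GGGCGG. The full element, where the activity-responsive factor CREB can bind, was in 2 of the 59 release genes with a window, Syn1 and Vamp1, and in 2.57% of 12586 genes of the files. The shorter form was in 15 of 59, against 26.04% of those genes, and the GC box in 39 of 59, against 54.04%. The stretches of Syn1 (chrX:3725525-3725592, plus strand) and Vamp1 (chr4:159698793-159698860, plus strand) are given with the full element in capitals, 182 and 63 bases before the start.
Syn1: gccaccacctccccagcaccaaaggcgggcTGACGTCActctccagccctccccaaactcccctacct
Vamp1: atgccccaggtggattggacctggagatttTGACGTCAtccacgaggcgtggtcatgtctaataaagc
The log2 fold changes of these genes, 0.17 ± 0.091 for Syn1 and 0.16 ± 0.077 for Vamp1, did not pass (adjusted p = 0.272 and 0.204). A match is a description of letters and not a binding site.

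A further 6 genes passed with limma-voom run with sample quality weights (limma-voom here), and not in the fit on the deposited values. That tool called 8 release genes, 3 higher and 5 lower, and 12.1% of all genes. Higher were Syt11, Snap25 and Syt12, and lower besides Syt10 and Stxbp4 were Stx4, Stxbp6 and Unc13c.
Syt11, a synaptotagmin that does not bind calcium, stood at 35805, 38595 and 40915 normalised reads (lowest, median and highest) in AS3h and 31604, 34379 and 37843 in NC. Of the AS3h libraries 5 lay above every NC library. Its log2 fold change was 0.16 ± 0.05, with an adjusted p of 0.0597 under limma and 0.0296 under limma-voom.
Snap25, the plasma membrane SNARE of fast release, stood at 54586, 58610 and 63398 in AS3h and 46807, 52776 and 56954 in NC. The groups overlapped, with 3 of the 6 AS3h libraries above every NC library. Its log2 fold change was 0.17 ± 0.057 (adjusted p = 0.0709 under limma and 0.0485 under limma-voom).
Syt12, another synaptotagmin without calcium binding, stood at 1823, 2104 and 2190 in AS3h and 1668, 1858 and 1940 in NC, with 5 AS3h libraries above every NC library (log2 fold change 0.16 ± 0.055, adjusted p = 0.0793 and 0.0458). It was named after its values were seen.

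Stx4, the syntaxin that Stxbp4 binds, stood at 894, 1002 and 1166 normalised reads in AS3h and 1100, 1136 and 1186 in NC. All AS3h libraries but AS3h 5 lay below every NC library, and the log2 fold change was -0.18 ± 0.061 (adjusted p = 0.073 under limma and 0.0462 under limma-voom). Without AS3h 5 it passed under limma as well, at -0.23 (adjusted p = 0.0193), as 8.14% of all genes did.
Stxbp6, or amisyn, a brain SNARE-domain protein that binds syntaxin, stood at 736, 958 and 1272 in AS3h and 1107, 1224 and 1463 in NC. AS3h 1 held the highest AS3h value and the other 5 lay below every NC library. Its log2 fold change was -0.39 ± 0.12 (adjusted p = 0.0627 and 0.028), and it passed under limma without AS3h 1 (adjusted p = 0.0191), as 8.37% of all genes did.
Unc13c, which encodes the Munc13-3 priming factor known mainly from cerebellum, stood at 239, 326 and 380 in AS3h and 353, 403 and 543 in NC. The groups overlapped, with 4 AS3h libraries below every NC library (log2 fold change -0.37 ± 0.13, adjusted p = 0.0766 and 0.0489).

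**Figure D2:**
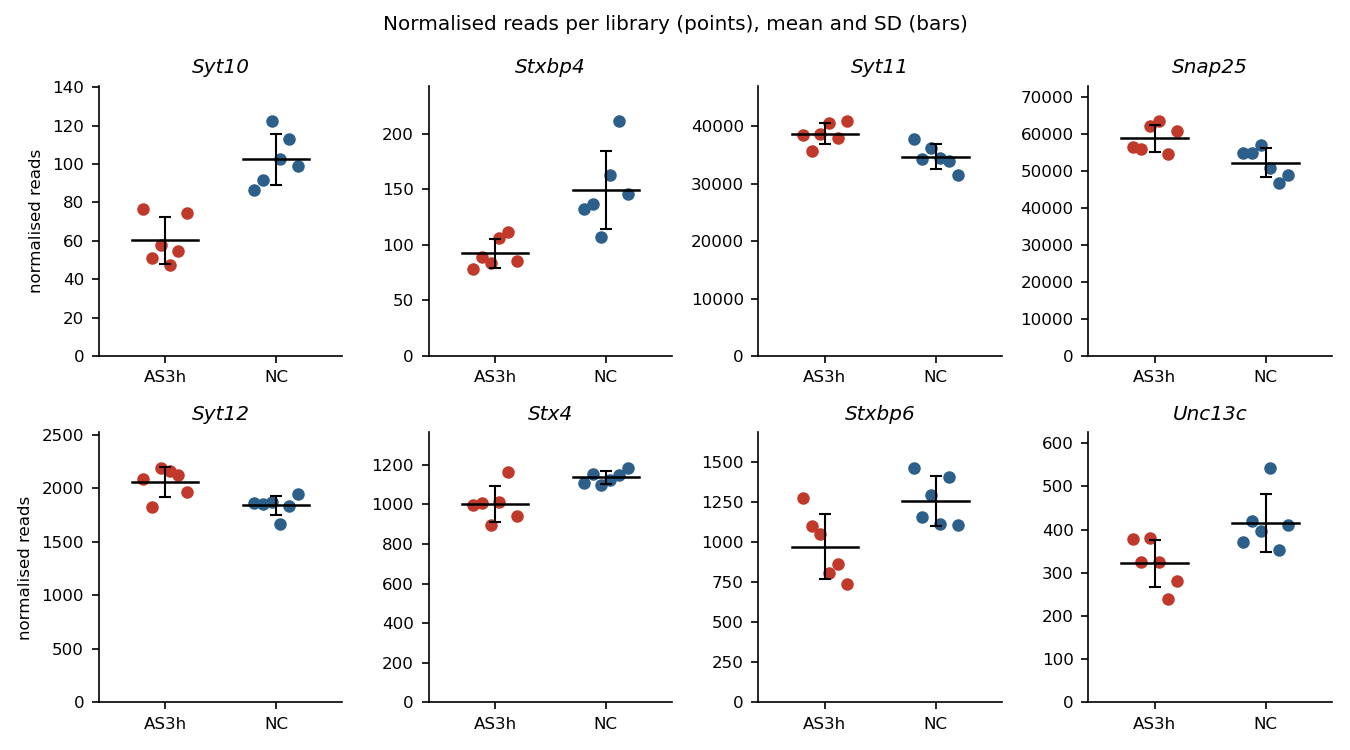
Normalised reads (y axis, from 0) of the 8 genes called by limma or limma-voom in the AS3h (left) and NC (right) libraries; points are libraries, bars the mean ± SD of 6. Syt10 shows no overlap between groups, and the other 7 do.

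None of the 16 genes of the core fusion machinery passed under limma. Of these 4 had an unadjusted p under 0.05, all higher, a share of 25% beside 24.9% of all genes. Under limma-voom 8 of the 16 had an unadjusted p under 0.05, beside 27.4% of all genes, and 1 passed, Snap25, beside 12.1%. Under limma with 1 library left out, the unadjusted count ran from 2 to 8. It was 2 without AS3h 4, AS3h 6 or NC 5 (21.9%, 22.7% and 23.9% of all genes). It was 8 without AS3h 5 or NC 1 (24% and 24.7% of all genes). With all libraries under limma, the log2 fold changes of the 16 ran from -0.15 (Pclo) to 0.20 (Bsn). Of the 16, 14 were above 0, with a median of 0.14. Over all genes tested 49.2% were above 0. With 1 library left out the core median was 0.08 (without AS3h 6) to 0.17 (without AS3h 5). The genes vary together across libraries, so they are not 16 independent observations. The 95% interval lay between -0.5 and 0.5 for 15 of the 16, Stx1a being the exception at -0.25 to 0.60.

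Among the SNAREs besides Snap25, the vesicle protein gene Vamp2 stood at 25857, 28735 and 33990 normalised reads in AS3h and 25073, 26482 and 27655 in NC. The log2 fold change was 0.15 ± 0.059 (95% interval 0.03 to 0.28, adjusted p = 0.113), with 5 AS3h libraries above all of NC, and it passed without AS3h 2 (0.19, adjusted p = 0.041). Stx1a, for a plasma membrane syntaxin of fast release, ran from 2015 to 4463 in AS3h and 1876 to 3081 in NC (0.18 ± 0.20, adjusted p = 0.629), with AS3h 3 and AS3h 6 above the rest.

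The calcium sensor gene Syt1 stood at 38315, 46040 and 50130 normalised reads in AS3h and 36059, 42373 and 47780 in NC. Its groups overlapped, and the log2 fold change was 0.13 ± 0.074 (adjusted p = 0.289). The complexin genes Cplx1 and Cplx2, whose products clamp and then promote fusion, were at 0.14 ± 0.077 and 0.08 ± 0.086 on the log2 fold change scale (adjusted p = 0.279 and 0.626).
Of the priming and active zone genes, Unc13a had a log2 fold change of -0.05 ± 0.063 (adjusted p = 0.644) and the RIM gene Rims1 one of 0.01 ± 0.11 (adjusted p = 0.966). The large scaffold genes pointed different ways. Bsn stood at 11888 to 17682 in AS3h and 10260 to 14710 in NC (0.20 ± 0.10, adjusted p = 0.252), and Pclo at 4924 to 7410 in AS3h and 4248 to 7920 in NC (-0.15 ± 0.13, adjusted p = 0.529). The difference between them was not tested.

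The core genes of vesicle membrane and vesicle-associated proteins were all above 0 in log2 fold change and none passed. Syp, for synaptophysin, the commonest vesicle marker, stood at 18966, 22935 and 25768 normalised reads in AS3h and 18708, 20318 and 22300 in NC. Its log2 fold change was 0.16 ± 0.07 (adjusted p = 0.177), with 4 AS3h libraries above all of NC. The vesicle GTPase gene Rab3a was at 0.16 ± 0.066 (adjusted p = 0.138), Syn1, for the synapsin that tethers the reserve pool, at 0.17 ± 0.091, and Sv2a, for the vesicle glycoprotein that levetiracetam binds, at 0.07 ± 0.048 (adjusted p = 0.388).

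The mean level of the 16 core genes differed more between libraries than between groups. As a mean log2 difference from the NC mean it was -0.07 to 0.26 in AS3h and -0.15 to 0.12 in NC, so the groups overlapped. AS3h 6, AS3h 4 and AS3h 3 were the 3 highest of all libraries, while AS3h 2 and AS3h 5 were below the NC mean. The 12 pan-neuronal markers ran alongside, at -0.06 to 0.17 in AS3h and -0.11 to 0.11 in NC, also with AS3h 6 and AS3h 4 on top and AS3h 5 lowest of the AS3h libraries. Their summed level was 175730 to 205966 normalised reads in AS3h and 174405 to 199829 in NC (adjusted exact permutation p = 0.3), and 1 of the 12 passed, Elavl4, as lower. None of the 12 was at 0 in any library. Covariates moved the core median in different directions. Once averages of choroid plexus and blood markers entered the fit, it was 0.21 and 16 of 16 genes were above 0. Of these 7 had an unadjusted limma p under 0.05, beside 16.1% of all genes, and none passed. With the pan-neuronal mean as a covariate the median core log2 fold change was 0.06 and 13 of 16 genes were above 0. Syt10 and Stxbp4 passed in that fit, a choice made after the data were seen, as did 7.62% of all genes. The core genes together took 0.896% to 1.05% of reads in AS3h and 0.822% to 0.974% in NC.

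Markers of hippocampal subfields also differed between libraries. The CA2 and CA3 list summed to 53715 to 75140 normalised reads in AS3h and 45155 to 65020 in NC, and the dentate granule cell list to 11333 to 16539 in AS3h and 14016 to 20000.4 in NC. The CA1 list summed to 19137 to 33133 in AS3h and 24972 to 33787 in NC. Adjusted exact permutation p-values were 0.146, 0.146 and 0.394. Of the 8, 7 and 6 genes of these lists 0, 1 and 2 passed, all lower. None of these genes was at 0 in any library except Iyd, a CA2 and CA3 marker, at 0 in 3 NC libraries. With the 3 list means as covariates, a choice made after the data were seen, 5 of the 16 core genes were above 0 and their median log2 fold change was -0.04. Syt10 and Stxbp4 were then at -0.60 and -0.77 (adjusted p = 0.301 and 0.272). In that fit 11 of all genes passed, 0.0577%, and 0 release genes, of which 9 had an unadjusted p under 0.05, as 14% of all genes did.

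**Figure D3:**
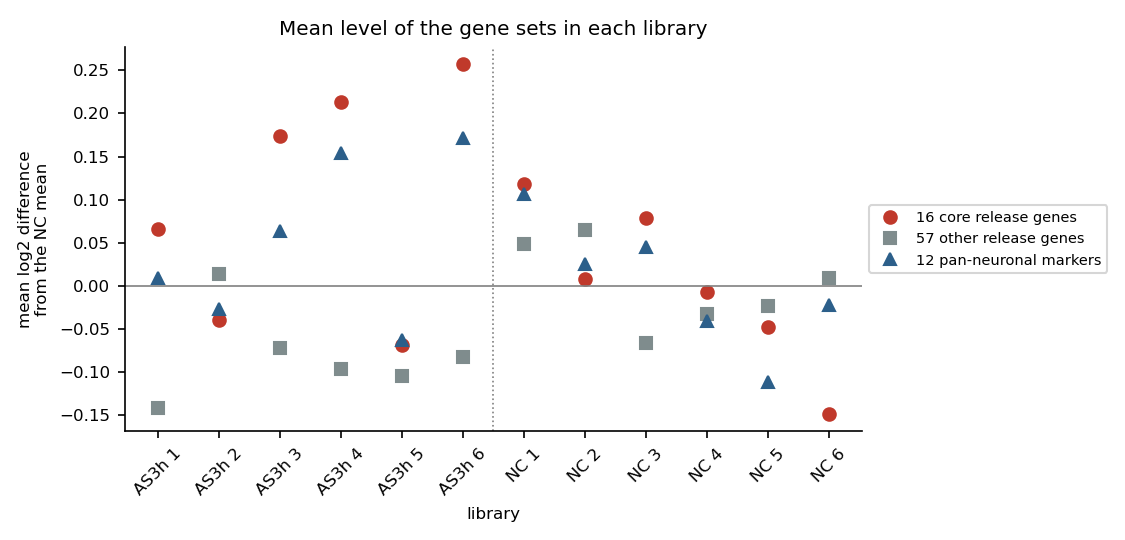
Mean log2 difference from the NC mean (y axis) in each library (x axis, AS3h left of NC) for the 16 core release genes, the 57 other release genes and 12 pan-neuronal markers. The core genes span -0.07 to 0.26 in AS3h and -0.15 to 0.12 in NC, and AS3h 6 and AS3h 4 have the highest values of both the core genes and the neuronal markers.

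The 57 release genes outside the core included both called genes, and 35 of them were below 0 in log2 fold change. Their median was -0.04, and as a mean log2 difference they stood at -0.14 to 0.01 in AS3h and -0.07 to 0.07 in NC.

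Of 17 synaptotagmin genes 1 fell and 16 did not pass, and 11 were above 0 with a median of 0.13. The called share, 5.88%, was below the 9.26% of all genes. Besides Syt10, Syt11, Syt12 and Syt1, the vesicle synaptotagmin gene Syt5 was at 0.13 ± 0.065 and the slow, high-affinity sensor gene Syt7 at -0.00 ± 0.092 (adjusted p = 0.231 and 0.994). Syt4, which neuronal activity induces in rat brain, had 7278, 8697 and 9533 normalised reads in AS3h and 7008, 8372 and 8747 in NC (log2 fold change 0.11 ± 0.073, adjusted p = 0.399). Syt2, the fast sensor of many interneurons and brainstem neurons, was at 0.22 ± 0.15 (adjusted p = 0.364). Syt3, Syt6 and Syt13 each had an unadjusted p under 0.05: Syt3 was at 0.21 (adjusted p = 0.0834), Syt6 at 0.28 (0.126) and Syt13 at 0.21 (0.181).

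Of 14 syntaxin genes none passed, beside 9.26% of all genes, and 10 were below 0. Those of endosomes, the Golgi and the endoplasmic reticulum, Stx5, Stx6, Stx7, Stx8, Stx12, Stx16 and Stx18, ran from -0.15 (Stx16) to 0.09 (Stx6). Stx3, found in sensory ribbon synapses and in dendrites of hippocampal neurons, stood at 603, 671 and 723 normalised reads in AS3h and 667, 778 and 817 in NC (log2 fold change -0.19 ± 0.067, adjusted p = 0.0854), and passed without NC 1 (-0.23, adjusted p = 0.0404). Of the 7 syntaxin-binding genes 1 fell, and 5 were below 0. The called share, 14.3% beside 9.26% of all genes, rests on that 1 gene. The tomosyn genes Stxbp5 and Stxbp5l, whose products hold back SNARE assembly, were at -0.12 ± 0.054 and -0.22 ± 0.13 (adjusted p = 0.185 and 0.335).

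Of 7 VAMP genes none passed, beside 9.26% of all genes. Vamp1, the VAMP of interneurons and motor neurons, stood at 7831 to 10939 normalised reads in AS3h and 7250 to 9452 in NC, and Vamp3, the general cellular form, at 1659 to 2108 in AS3h and 1770 to 1970 in NC (log2 fold change 0.04 ± 0.062). Snap29, for a SNARE of autophagosomes and endosomes, stood at 1182, 1384 and 1425 in AS3h and 1396, 1483 and 1588 in NC (-0.15 ± 0.056, adjusted p = 0.121), opposite in sign to Snap25. Snap47 was at 0.02 ± 0.076. The symbol Snap23 had no row to analyse here.

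In the smaller families the members differed in sign. Syn3, the synapsin of developing neurons, was at -0.30 ± 0.11 (adjusted p = 0.113), with 148 to 207 normalised reads in AS3h and 179 to 248 in NC, beside 0.17 for Syn1 and 0.17 for Syn2. Rab3c was at -0.32 ± 0.18 (adjusted p = 0.302), with 583 to 1110 in AS3h and 664 to 1272 in NC, beside 0.16 for Rab3a, -0.07 for Rab3d and -0.0072 for Rab3b. Sv2c was at -0.24 ± 0.15 (adjusted p = 0.34), beside 0.07 for Sv2a and 0.24 for Sv2b. Unc13b was at -0.16 ± 0.077 and Rims2 at -0.09 ± 0.048 (adjusted p = 0.218 and 0.279). None of these passed, and differences between relatives were not tested.

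The mean over libraries was under 100 normalised reads for 9 of the 73 genes, Syt10 among them. The fewest reads were those of Cplx4, Syt8 and Syt15. Cplx4, a retinal complexin, had 16 reads over the AS3h libraries and 47 over the NC libraries, and was at 0 in AS3h 3 and AS3h 6 (log2 fold change -1.28 ± 0.59, adjusted p = 0.193). Its 95% interval was -2.54 to -0.026, with an unadjusted limma p of 0.046. Syt8 had 22 reads in AS3h and 15 in NC, and was at 0 in 3 NC libraries. Syt15 had 33 in AS3h and 36 in NC, and was at 0 in 2 AS3h libraries. In 1 library 3 reads correspond to 2.58 to 3.26 normalised reads, so single libraries of these 3 genes were at or near the floor of detection. None of the 3 passed, and their few reads limit what differences could be seen at this depth. All 73 passed the filter on low values.

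The spread of the release genes between replicates was close to that of other genes. Over the 64 with a mean of at least 100 normalised reads, the median SD of the log2 value within groups was 0.15, against 0.14 over 12689 genes at that level. Rims2 and Vamp4 had the lowest of the 64, both at 0.07. Stx1a (0.37) and Rab3c (0.36) had the highest.

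**Figure D4:**
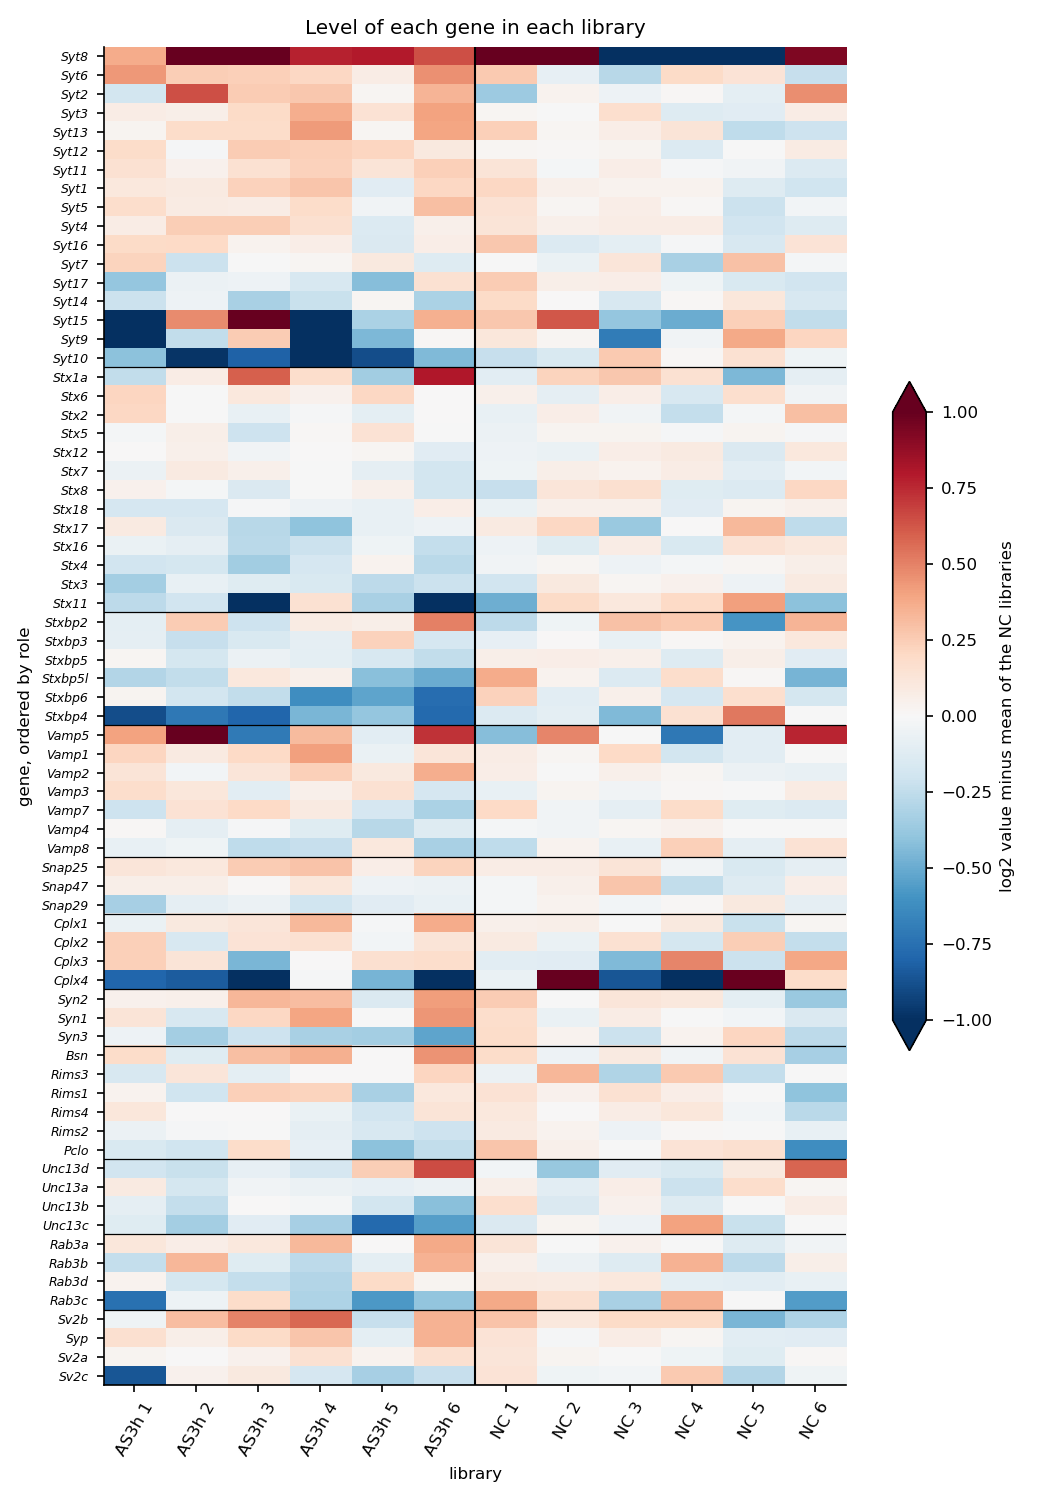
Level of 71 of the 73 genes (rows, grouped by role) in the 6 AS3h and 6 NC libraries (columns) as the log2 value minus the mean of the NC libraries; colours end at -1 and 1. Most rows are pale in both groups, Syt10 and Stxbp4 are blue across AS3h, and the strongest single colours lie in genes with few reads (Syt8, Syt15, Cplx4).

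Beyond the fusion machinery, 57 other genes of the vesicle cycle were read from the same fit: tethering and active zone partners, transmitter loading, clathrin coats and recycling. Of these 4 rose, 2 fell and 51 did not pass, or 10.5% called, which is near the 9.26% of all genes and no result about the list. Their median log2 fold change was 0.06.
Ppfia1, for liprin-alpha-1, which is made in many tissues, rose to 1555, 1682 and 1757 normalised reads in AS3h, against 1162, 1229 and 1383 in NC. All AS3h libraries lay above all NC libraries (log2 fold change 0.41 ± 0.055, adjusted p = 0.000496). Ppfia2, for the brain form liprin-alpha-2 that positions active zones, fell to 2603, 3254 and 3427 in AS3h, against 3483, 3942 and 4612 in NC, again with no overlap (-0.32 ± 0.078, adjusted p = 0.0216). The other liprin-alpha genes, Ppfia3 and Ppfia4, did not pass (adjusted p = 0.23 and 0.947). Rimbp2, for the protein that links RIMs to calcium channels, fell by 0.30 on the log2 scale (adjusted p = 0.0234), with 3848 to 4920 in AS3h and 4580 to 6156 in NC.

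Slc17a7, for the vesicular glutamate transporter VGLUT1 of pyramidal and granule cells, rose to 53562, 63974 and 70932 normalised reads in AS3h, against 47417, 53134 and 55320 in NC. The groups overlapped, the lowest AS3h library lying within the NC range (log2 fold change 0.27 ± 0.072, adjusted p = 0.0318). The vesicle membrane gene Scamp5 and the clathrin adaptor gene Ap2m1 rose by 0.25 and 0.20 on the log2 scale (adjusted p = 0.022 and 0.0305). When libraries were dropped one at a time, Slc17a7 no longer passed in 7 of 12 fits, Ap2m1 in 6, Rimbp2 in 2, Scamp5 and Ppfia2 in 1 each and Ppfia1 in none, while 5.5% to 9.51% of all genes passed. The log2 fold change then ran from 0.23 to 0.31 for Slc17a7 and from 0.17 to 0.22 for Ap2m1. The list then held 1 to 7 higher and 1 to 3 lower genes, with 1 of each without AS3h 4. With the blood and choroid plexus covariates Ppfia1 alone of the 6 passed, and with the subfield covariates none did (adjusted p = 0.103 for Ppfia1 and 0.211 to 0.889 for the rest). The log2 fold change of Ppfia1 was 0.44 with the subfield covariates and 0.39 to 0.46 over all 23 alternatives.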

How the data were processed

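Per the labels' protocols, strand-specific libraries were made from 1.3 µg of total RNA. Per the submitters' processing notes, FastQC 0.11.5, STAR and the build mRatBN7.2 were used, with no roles stated. Nothing used here names the counting program, its strand setting, annotation or filters, so overlapping genes may share reads. The deposited log2 values held reads scaled by a library factor, with 1 added. Whole reads came back in 100% of values (within 0.02 read). Libraries held 29615243 to 36947557 reads in AS3h and 30128112 to 38106489 in NC (exact permutation p = 0.147), and no replicates were duplicates (chi-square over degrees of freedom at least 11.9).

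The deposited log2 values were fitted with limma 3.58.1 in R 4.3.3 (group only, mean trend, robust), with a pseudocount of 1 and genes kept at a normalised value of at least 1 in at least 6 libraries. P-values were adjusted by Benjamini-Hochberg at 0.05. Fold changes understate low genes. Depth and the sums of marker lists had exact permutation tests (two-sided), adjusted over 13 measures. The fit was tested on simulated data, with changes only in genes with a mean of at least 100 normalised reads, which leaves out the level of Syt10. The simulation held no shifts of cell content between libraries. Promoter sequences are from RefSeq (GRCr8), matched by symbol for 59 of 73 genes. The members and lists were chosen with earlier results of these data known. Genes named by rule were called members, the 2 smallest p-values of each of 11 roles, 16 core genes and called genes of the wider list. Others were named after their values were seen. The single values of 2 members are not reported here, and counts include them. Over all genes tested, deviations of same-numbered samples were nearly uncorrelated (correlations -0.015 to 0.027), and the main fit treated the samples as unpaired. Whether they were paired by design cannot be told from these correlations. A correlation over all genes does not show independence for single genes. Figures used matplotlib 3.10.9 in Python 3.11.15. Intervals are those of the log2 fold change in the limma fit and, like the p-values, reflect variation among these libraries.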

Additional observations from a re-analysis of the deposited data

Results flagged for a closer look

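In groups of 6, single libraries of 4 genes lay farther from the rest than Dixon's 95% limit, among 70 groups of named genes, of which chance flags about 1 in 20. Cplx1 was at 13.19 (log2) in NC 5, against 13.41 to 13.52 in the other NC libraries, and without NC 5 its log2 fold change was 0.10 (adjusted p = 0.468). Pclo was at 12.05 in NC 6, against 12.67 to 12.95 in the other NC libraries, and without NC 6 its log2 fold change was -0.27 (adjusted p = 0.0657). Rims1 was at 11.94 in NC 6, against 12.34 to 12.50, and without NC 6 its log2 fold change was -0.07 (adjusted p = 0.702). Ppfia2 was at 11.35 in AS3h 6, while the other AS3h libraries held 11.61 to 11.74. Without AS3h 6 its log2 fold change was -0.26 (adjusted p = 0.0373). NC 6 also had the lowest mean of the 16 core release genes (a log2 difference of -0.15 from the NC mean).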

How the results depend on the processing

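The count of release genes was 0 higher and 2 lower with no filter, a filter at 10, a pseudocount of 0.1, median-of-ratios factors and the pan-neuronal covariate, and 0 and 3 without AS3h 4 and AS3h 5 or with the replicate block, which added Stxbp6 (adjusted p = 0.0271). It was 3 higher and 5 lower with limma-voom, 1 and 2 with total-read factors, and 4 and 6 at an adjusted p under 0.1. With the blood and choroid plexus or the subfield covariates it was 0 and 0. Among all genes 6.27% passed with no filter, 11.4% with a filter at 10, 9.1% with a pseudocount of 0.1 and 9.04% with median-of-ratios factors. The share was 12.1% with limma-voom, 8.66% with total-read factors, 6.8% with the replicate block and 14.9% at an adjusted p under 0.1. It was 7.62% with the pan-neuronal covariate and 4.64% without AS3h 4 and AS3h 5. With the blood and choroid plexus covariates it was 0.688%, and with the subfield covariates 0.0577%. Leaving out 1 library gave 0 to 3 higher and 2 to 3 lower release genes, while 5.5% to 9.51% of all genes passed. There were 3 higher without AS3h 2 and 1 without NC 1. Beside the same shares of all genes, the other vesicle cycle genes counted 2 higher with the replicate block. They counted 7 higher at an adjusted p under 0.1, and 2 higher and 0 lower without AS3h 4 and AS3h 5. Counts were 1 and 0 with the blood and choroid plexus covariates and 0 and 0 with the subfield covariates. With 1 library left out they were 1 to 7 higher and 1 to 3 lower (1 and 1 without AS3h 4). Signs of 23, 11 and 5 of the 73 release genes turned with the subfield, the blood and choroid plexus and the pan-neuronal covariates. Among genes named by rule these included, with the subfield covariates, Bsn (-0.17), Cplx1 (-0.00574), Cplx2 (-0.14), Rims1 (-0.47), Stx1a (-0.10), Syn1 (-0.13), Syp (-0.0372), Syt1 (-0.13) and Vamp1 (-0.0396), none passing, with the blood and choroid plexus covariates, Pclo (0.0659) and Unc13a (0.0607), and with the pan-neuronal covariate, Rims1 (-0.0692). Rims1 also ran from -0.0693 to 0.0796 with 1 library left out. The cause of these shifts was not tested. The replicate block changed no other release gene's call. The subfield and pan-neuronal covariates were chosen after the data were seen. Few reads limit Cplx4, Syt8 and Syt15.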
